A study of Mus musculus with 4 samples.

Results

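The miR-29 family was followed in C2C12 myotubes through its 6 mature miRNAs, miR-29a-3p, miR-29b-3p, miR-29c-3p, miR-29a-5p, miR-29b-1-5p and miR-29c-5p. They were found by their names, and each of the 6 was listed in all 4 samples, among 869 miRNAs listed in at least 1 sample. C2C12 is an established mouse line of skeletal myoblasts, which the labels place on a 129/Rej strain background. All 4 samples were collected at day 6 of differentiation in medium with horse serum, either without guanidinoacetic acid (GAA), a precursor of creatine, or with 20 mM GAA. The negative control group (NC) holds 2 samples and the GAA group holds 2. Nothing in the labels says whether the samples of a group were separate cultures, so the p-values measure only the spread between these samples, which may be technical. A single cell line in culture is also a limit of the model, since the fibroblasts, vessels and nerves of a muscle are not in it. In such bulk RNA, fewer cells of a type and less RNA per cell cannot be told apart.

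miR-29 is known as a repressor of the extracellular matrix. Its 3p arms pair with the mRNAs of collagens, elastin and fibrillin, and TGF-β signalling is known to lower them in fibrotic tissue. In muscle the family is also known to favour myoblast differentiation, and miR-29b has been tied to muscle atrophy. Each precursor hairpin yields 2 arms. The 3p arm is the guide that is loaded into Argonaute, and the 5p arm is mostly discarded.

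The mature sequences of the 6 members, and of miR-29b-2-5p from the remaining precursor, are shown because reads are assigned to a member by these bases. They are given 5′ to 3′ from RefSeq on GRCm38.p6, with the seed (bases 2 to 8) in capitals.
miR-29a-3p: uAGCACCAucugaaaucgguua
miR-29b-3p: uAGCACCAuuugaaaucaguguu
miR-29c-3p: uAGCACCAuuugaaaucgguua
miR-29a-5p: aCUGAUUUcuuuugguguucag
miR-29b-1-5p: gCUGGUUUcauauggugguuua
miR-29c-5p: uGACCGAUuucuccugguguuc
miR-29b-2-5p: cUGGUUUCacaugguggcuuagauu

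The 3p arms share 1 seed, AGCACCA, and no other of the 1679 mature mouse miRNAs in the RefSeq table carries it. Counted from the 5′ end of miR-29a-3p, miR-29c-3p differs by the single substitution C10U over 22 bases. miR-29b-3p differs from miR-29a-3p by 4 substitutions, C10U, G18A, U21G and A22U, and it alone among the members ends in AGUGUU, a hexamer known to direct miR-29b into the nucleus. The 5p members have 3 different seeds. The closest 5p members, miR-29a-5p and miR-29c-5p, match at 17 of 20 bases when one is slid along the other by 2 bases.

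The hairpins lie in pairs on 2 chromosomes and are shown with both arms in capitals, so that the position of each arm can be seen (RefSeq, GRCm38.p6, 5′ to 3′ on the strand given).
Mir29a, chr6:31062660-31062747, minus strand: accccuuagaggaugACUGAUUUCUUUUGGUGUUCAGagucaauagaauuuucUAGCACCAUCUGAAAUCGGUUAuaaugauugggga
Mir29b-1, chr6:31063023-31063093, minus strand: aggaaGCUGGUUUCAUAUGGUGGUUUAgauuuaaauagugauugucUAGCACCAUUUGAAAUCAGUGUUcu
Mir29b-2, chr1:195037040-195037120, plus strand: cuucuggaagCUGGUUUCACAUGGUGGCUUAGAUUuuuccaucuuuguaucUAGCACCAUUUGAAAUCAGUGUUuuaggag
Mir29c, chr1:195037547-195037634, plus strand: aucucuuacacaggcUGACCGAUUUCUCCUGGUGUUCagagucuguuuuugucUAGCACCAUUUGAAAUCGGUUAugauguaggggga

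On chromosome 6 the 2 hairpins are 275 bases apart, and no gene other than the 3′-most bases of an exon of the long non-coding RNA Gm27019, which reaches into Mir29b-1, is annotated over them in GENCODE M21. On chromosome 1 they are 426 bases apart, inside an exon of the non-coding transcript A330023F24Rik on the same strand and opposite an exon of Cd46. miR-29b-3p has the same sequence in Mir29b-1 and Mir29b-2, so its reads cannot be divided between the 2 loci.

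The libraries held 4732359 to 5657704 mappable reads, of which 1653803 to 3134241 were miRNA reads. That sum takes every row, and some rows carry the same values, as miR-199a-3p and miR-199b-3p do. Their reads may thus be counted more than once in it and in the fractions and shares below. Of the mappable reads, known miRNAs made up 33.6% and 43.6% in the NC samples, against 56.3% and 50.4% in the GAA samples. Values are therefore given as reads per 1000000 mappable reads (RPM), the deposited scale, and as a share of miRNA reads, because this fraction differed between the groups. Where logs were needed, the share was scaled to reads per 1000000 miRNA reads, called miRNA-scaled RPM. Pairs of values are given in the order of replicates 1 and 2. The markers of skeletal muscle were summed over miR-206-3p, miR-133a-3p, miR-133b-3p and miR-1a-3p. This sum was 5607 and 7078 RPM in NC and 4513 and 4888 RPM in GAA, so it was lower in both GAA samples. The 10 markers fixed for liver, neuron, blood, endothelium, pancreatic islet and epithelium summed to 34.3 to 71.0 RPM, most of it the neuronal miR-9-5p. These other markers were lowest in NC-1 and highest in GAA-1, and their part in the miR-29 values was not tested.

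miR-29a-3p was by far the most abundant member. In the NC samples it stood at 2478 and 2293 RPM (12204 and 10852 reads), and in the GAA samples at 4146 and 3648 RPM (23078 and 20637 reads). By mean RPM it ranked 26 of 869, directly below miR-140-3p (3226 RPM) and miR-125b-5p (3151 RPM) and above miR-182-5p (2978 RPM) and miR-133a-3p (2877 RPM). Its order against miR-140-3p, miR-125b-5p and miR-182-5p changed between the NC samples, and in GAA its range overlapped those of the first and second of these but lay above that of miR-182-5p. miR-133a-3p lay above miR-29a-3p in both NC samples (3059 and 3787 RPM) and below it in both GAA samples (2251 and 2409 RPM), so their order by the mean of all 4 samples holds in GAA only. Both GAA samples lay above both NC samples for miR-29a-3p in RPM.

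miR-29b-3p ranked 76, at 307 and 402 RPM in NC and 544 and 469 RPM in GAA. Its recovered reads were 1509.5 and 1904 for the NC samples and 3027.5 and 2655.5 for the GAA samples. The values in 3 samples are not whole numbers of reads, which it alone among the members shows, so some of its reads were counted in part. miR-29c-3p ranked 136, at 69.2 and 69.9 RPM in NC, from 341 and 331 reads, and 117 and 102 RPM in GAA, from 652 and 576 reads. For both of these paralogs, too, the GAA samples were above the NC samples, and the order a, b, c held in all 4 libraries without overlap.

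The 5p arms were far rarer. miR-29a-5p stood at 20.1 and 29.6 RPM for NC (99 and 140 reads), and GAA gave 43.7 and 23.7 RPM (243 and 134 reads). GAA-1 was the highest, but GAA-2 fell between the NC samples, so the groups overlapped. miR-29c-5p stood at 3.65 and 6.55 RPM for NC (18 and 31 reads), and GAA gave 10.1 and 7.78 RPM (56 and 44 reads), without overlap.

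miR-29b-1-5p was the rarest member, with 4 and 12 reads among the NC samples (0.812 and 2.54 RPM) and 25 and 9 among the GAA samples (4.49 and 1.59 RPM). Its groups overlapped, and NC-1 lay just above 0.609 RPM, the level that 3 reads give in that library. The arm of the remaining precursor, miR-29b-2-5p, was read 2 and 3 times for NC and 5 and 1 times for GAA, which at this depth cannot show a difference. Read numbers of unlike sequences also depend on how well each is ligated and amplified, so the order of the members is an order of reads.

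**Figure D1:**
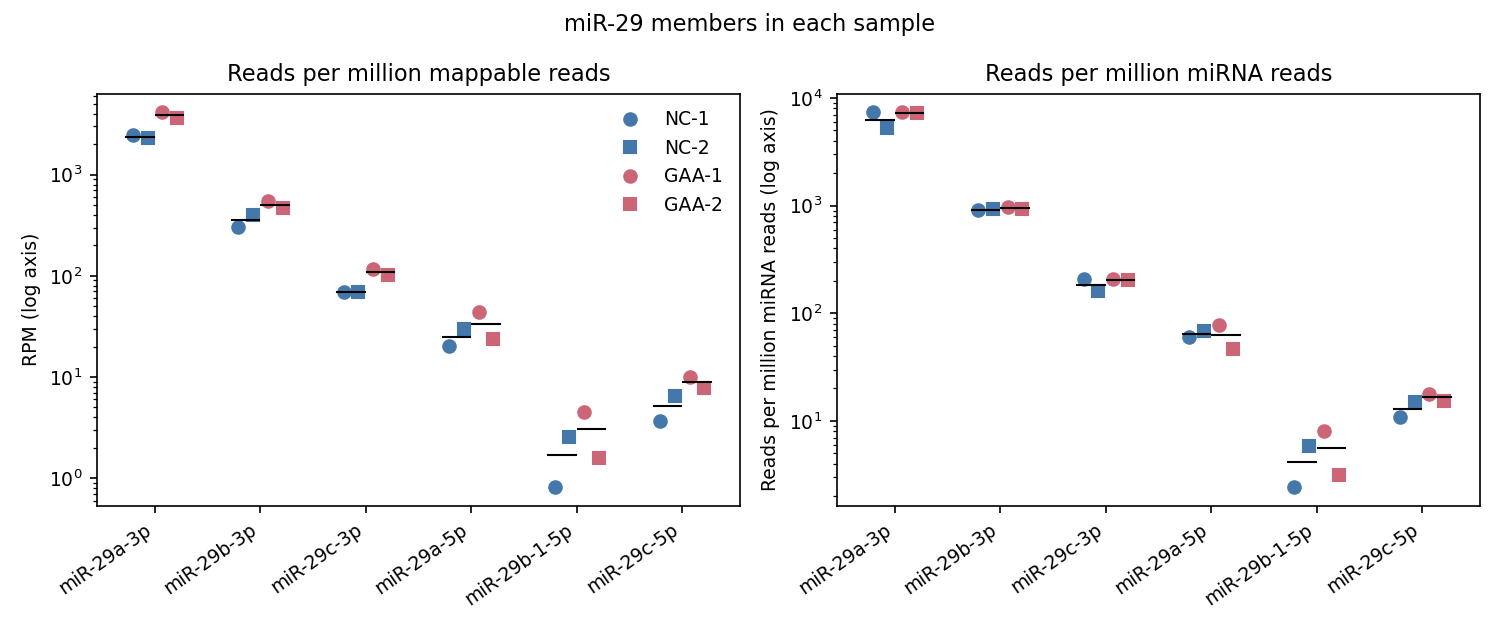
Each point is 1 library (NC in blue, GAA in red, circles for replicate 1 and squares for replicate 2) and each black line the mean of 2, on log axes, in RPM (left) and in miRNA-scaled RPM (right). All 3 members of the 3p arm are higher in both GAA samples in RPM, whereas on the right NC-1 joins the GAA samples for miR-29a-3p and miR-29c-3p and NC-2 lies below them.

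The comparison of NC with GAA asked whether the supplement changed the miRNA levels of myotubes. In RPM, the mean of miR-29a-3p was 2386 ± 131 for NC and 3897 ± 352 for GAA (SD, n = 2 each), 1.63-fold higher with GAA. The mean of miR-29b-3p was 354 ± 67.8 for NC and 507 ± 52.7 for GAA, 1.43-fold higher, and that of miR-29c-3p was 69.6 ± 0.497 and 109 ± 10.8, 1.57-fold higher (SD, n = 2 each). The log2 fold change of log2(RPM + 1) was 0.71 (standard error 0.17, 95% interval 0.23 to 1.18) for miR-29a-3p, 0.52 (standard error 0.21, -0.06 to 1.11) for miR-29b-3p and 0.64 (standard error 0.16, 0.20 to 1.09) for miR-29c-3p. None of these differences passed the test after adjustment over all 869 miRNAs, with limma adjusted p-values of 0.219, 0.292 and 0.219, respectively.

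The 5p members had wider intervals that all included 0. The log2 fold change was 0.73 (95% interval -0.18 to 1.65, limma adjusted p = 0.338) for miR-29c-5p. It was 0.39 (-0.69 to 1.46) for miR-29a-5p and 0.58 (-0.95 to 2.10) for miR-29b-1-5p, both with an adjusted p of 0.524. The value of miR-29b-1-5p rests on few reads, and the added 1 pulls the log2 fold change of such a miRNA toward 0. Without GAA-1, the fold of mean RPM was 0.953 for miR-29a-5p and 0.950 for miR-29b-1-5p, from 1.36 and 1.82 with it, so the higher mean of these arms rests on that library. For miR-29b-1-5p the fold also depended on the controls, at 3.74 without NC-2 and 1.20 without NC-1.

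Of the 6 members, 0 were called at an adjusted p under 0.01 with an absolute log2 fold change above 1, as were 0% of all 869 miRNAs. The smallest limma adjusted p over all 869 was 0.205, so 0 calls do not show that levels were unchanged. The study used the same thresholds in edgeR on read counts and did report differential miRNAs, which is a different test. Before adjustment, 152 miRNAs passed 0.05 in limma and 136 of them were higher in GAA, miR-29a-3p and miR-29c-3p among them. Both GAA samples exceeded both NC samples in RPM for 4 of the 6 members, against 63.4% of the 410 miRNAs with a mean of at least 1 RPM. The median log2 fold change was 0.61 over the members and 0.49 over those 410 miRNAs, and 90.0% of the 410 had a positive log2 fold change. The members ran from 0.39 (miR-29a-5p) to 0.73 (miR-29c-5p). They thus had the direction of a general difference in RPM, and nothing particular to the family can be read from that direction.

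**Figure D2:**
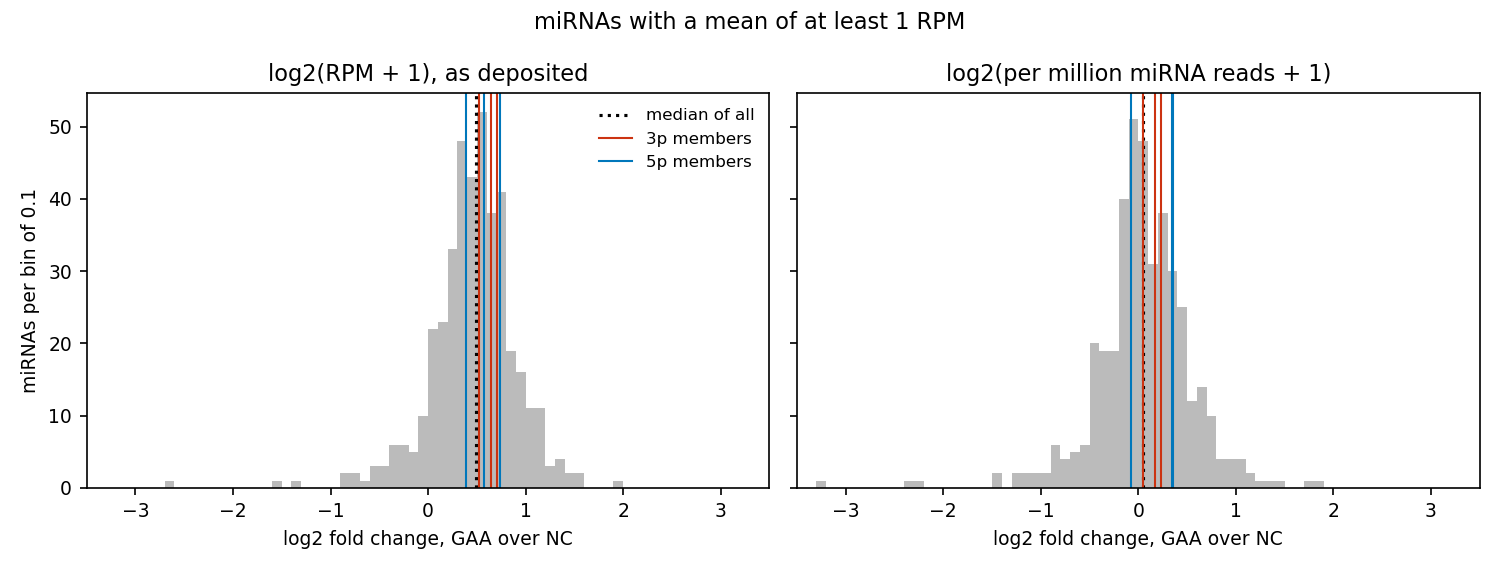
Histograms give log2 fold changes (GAA over NC, from limma) of the 410 miRNAs with a mean of at least 1 RPM, for RPM (left) and miRNA-scaled RPM (right), each with 1 added before the log. The dotted median of all 410 is 0.49 on the left and 0.05 on the right. The 3p members (red lines) run from 0.52 to 0.71 on the left and from 0.05 to 0.23 on the right. The 5p members (blue lines) run from 0.39 to 0.73 on the left and from -0.08 to 0.35 on the right.

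As a share of miRNA reads, most of the difference was no longer seen. Among the NC samples miR-29a-3p took 0.738% of the miRNA reads (95% Wilson interval 0.725% to 0.751%) and 0.525% (0.516% to 0.535%). Among the GAA samples it took 0.736% (0.727% to 0.746%) and 0.724% (0.714% to 0.734%). NC-1 thus lay with the GAA samples and NC-2 stood below the other 3. miR-29c-3p also set NC-2 apart, at 0.0206% and 0.0160% for NC against 0.0208% and 0.0202% for GAA, although here NC-1 fell between the GAA samples. The intervals cover the counting of reads only, and the NC samples of miR-29a-3p differed by far more than their intervals allow.

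miR-29b-3p did not share the drop in NC-2. It took 0.0913% and 0.0922% of the miRNA reads in NC and 0.0966% and 0.0931% in GAA, so that the GAA samples were higher by a small margin. miR-29a-5p took 0.00599% and 0.00678% in NC and 0.00775% and 0.00470% in GAA, with the GAA samples on either side of the NC samples. miR-29c-5p was higher in both GAA samples, at 0.00109% and 0.00150% in NC against 0.00179% and 0.00154% in GAA. miR-29b-1-5p overlapped, at 0.000242% and 0.000581% in NC against 0.000798% and 0.000316% in GAA.

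On this scale 2 of the 6 members, miR-29b-3p and miR-29c-5p, were higher in both GAA samples, against 23.7% of the 410 miRNAs. In limma 0.115% of the 869 miRNAs were called on this scale, which is 1 miRNA and no member. With 1 added to the miRNA-scaled RPM, the log2 fold change was 0.23 (95% interval -0.27 to 0.73) for miR-29a-3p, 0.05 (-0.35 to 0.45) for miR-29b-3p and 0.17 (-0.30 to 0.65) for miR-29c-3p. It was -0.08 (-0.71 to 0.56) for miR-29a-5p, 0.34 (-0.88 to 1.56) for miR-29b-1-5p and 0.35 (-0.39 to 1.09) for miR-29c-5p. All 6 limma adjusted p-values on this scale were between 0.781 and 0.928. Without NC-2, the fold in share was 0.989 for miR-29a-3p and 0.994 for miR-29c-3p, and without NC-1 it was 1.39 and 1.28. The fold of miR-29b-3p was 1.04 and 1.03, respectively.

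**Figure D3:**
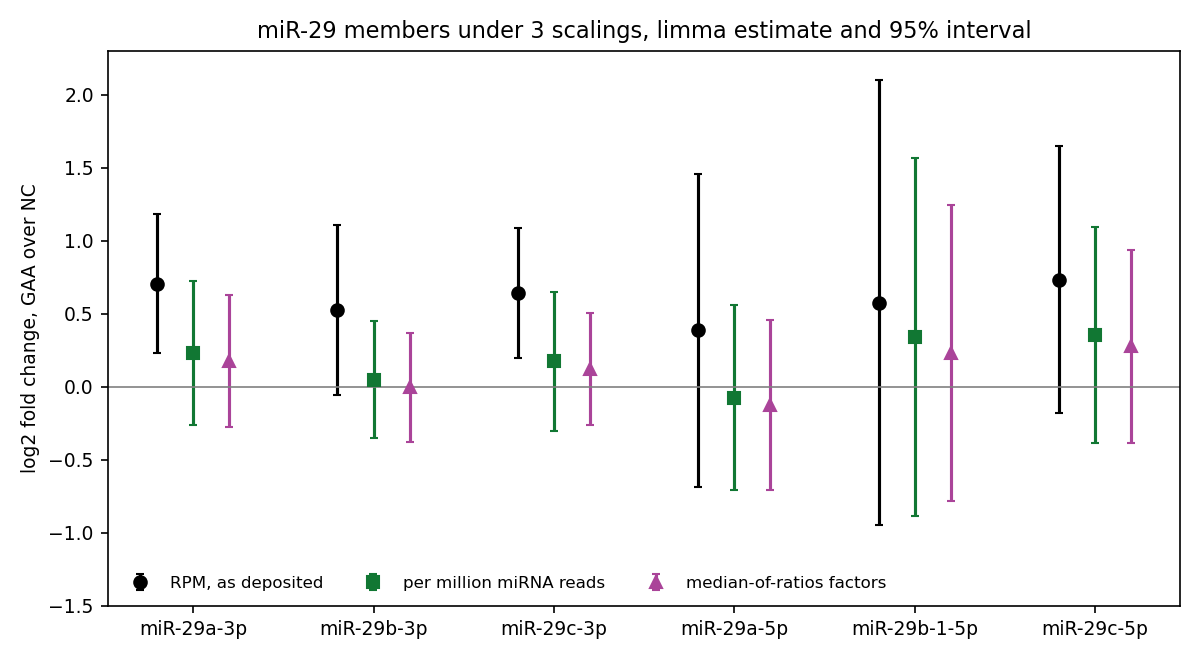
Points are limma estimates of each member's log2 fold change (GAA over NC) and bars their 95% intervals, for RPM as deposited (black circles), miRNA-scaled RPM (green squares) and median-of-ratios factors (purple triangles). In RPM only the intervals of miR-29a-3p and miR-29c-3p stay above 0, and under the other scalings all 6 intervals include 0.

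Summed, the 3p arms stood at 2854 and 2765 RPM in NC and 4807 and 4219 RPM in GAA. Their mean was 2810 ± 62.5 RPM for NC and 4513 ± 416 RPM for GAA (SD, n = 2 each). The groups did not overlap, which gives the smallest p that 2 samples against 2 allow (exact two-sided permutation test, p = 0.333). In share of miRNA reads the same sum was 0.850% and 0.634% for NC against 0.854% and 0.837% for GAA. Here the groups overlapped (exact two-sided permutation test, p = 0.667). The summed 5p members took 0.00732% and 0.00886% of the miRNA reads in NC and 0.0103% and 0.00656% in GAA, also with overlap.

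The make-up of the 3p sum does not depend on the divisor. miR-29a-3p supplied 86.8% (95% Wilson interval 86.3% to 87.4%) and 82.9% (82.3% to 83.6%) of it for NC, and for GAA 86.2% (85.8% to 86.7%) and 86.5% (86.0% to 86.9%). miR-29b-3p supplied 10.7% and 14.5% for NC and 11.3% and 11.1% for GAA. NC-2 again stood apart from the other 3 samples, with less of miR-29a-3p and more of miR-29b-3p, so neither share separated the groups (exact two-sided permutation test, p = 1 for both).

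miR-29c-3p kept a nearly constant share of the 3p sum, at 2.43% and 2.53% for NC and 2.44% and 2.41% for GAA. For each read of miR-29c-3p there were 35.8 and 32.8 reads of miR-29a-3p with NC, and 35.4 and 35.8 with GAA. The reads of miR-29a-3p per read of miR-29b-3p varied more, at 8.08 and 5.70 with NC and 7.62 and 7.77 with GAA. The pair with the steady ratio is the one that differs by C10U alone, and the sources used here do not say how reads with a mismatch were assigned, so an exchange of reads between the 2 paralogs was not tested.

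The 5p arms of the same 2 precursors gave another ratio. There were 5.50 and 4.52 reads of miR-29a-5p for each read of miR-29c-5p in NC and 4.34 and 3.05 in GAA. The GAA samples were lower without overlap (exact two-sided permutation test, p = 0.333, the smallest possible), and GAA-2, the lowest, rests on 134 and 44 reads. Across the 4 samples the excess of Mir29a over Mir29c was thus 32.8 or more in 3p reads and 5.50 or less in 5p reads.

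The 3p arm dominated for Mir29a, for Mir29c and for miR-29b, whose precursors cannot be told apart in 3p reads. miR-29a-5p made up 0.805% and 1.27% of the reads of both Mir29a arms in NC and 1.04% and 0.645% in GAA. The 5p share was larger for Mir29c, at 5.01% (95% Wilson interval 3.19% to 7.79%) and 8.56% (6.10% to 11.9%) for NC, with GAA at 7.91% (6.14% to 10.1%) and 7.10% (5.33% to 9.39%). In every sample the interval of Mir29c lay above that of Mir29a. For miR-29b, miR-29b-1-5p made up 0.264% and 0.626% of its own reads and those of miR-29b-3p in NC, and 0.819% and 0.338% in GAA. With miR-29b-2-5p also counted, the 5p share of miR-29b was 0.396% and 0.782% in NC and 0.981% and 0.375% in GAA. None of the 3 arm shares separated NC from GAA.

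**Figure D4:**
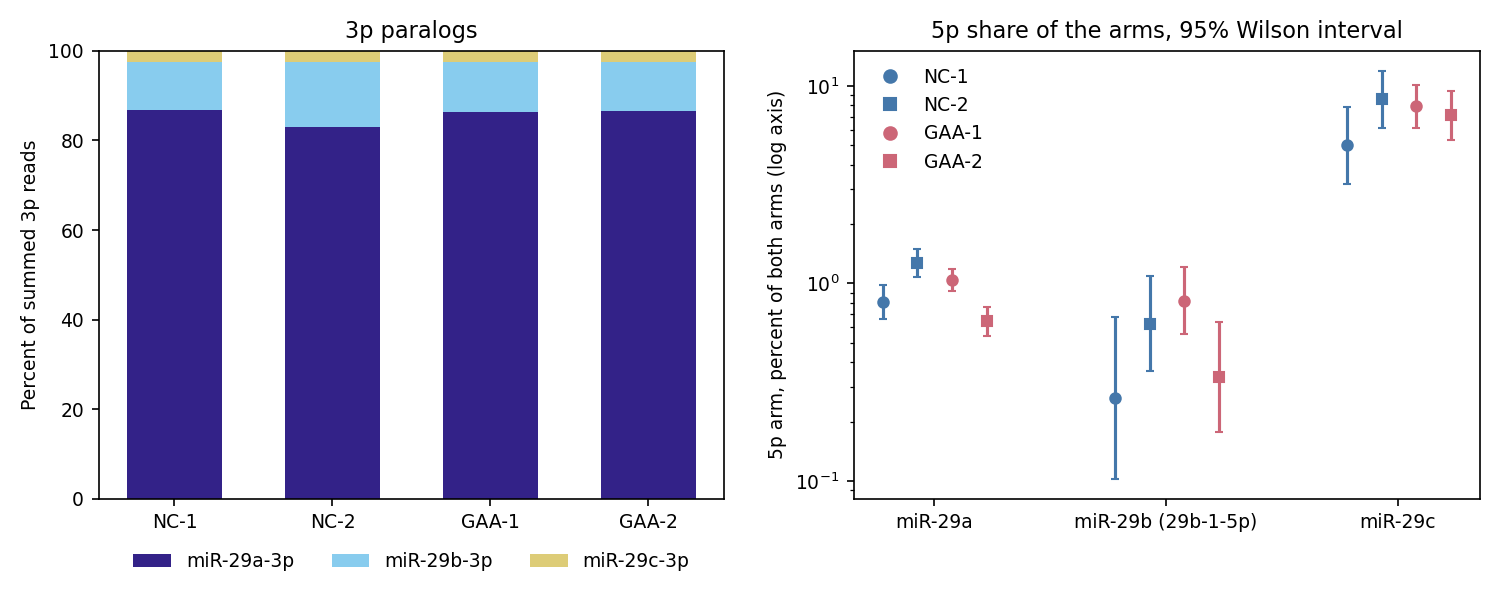
Left, stacked bars give the percent of summed 3p reads from miR-29a-3p, miR-29b-3p and miR-29c-3p in each sample. Right, points give the 5p arm as percent of both arms on a log axis, with 95% Wilson intervals, for each sample. For miR-29b the 5p arm is miR-29b-1-5p alone, whereas reads of miR-29b-3p may come from either precursor. NC-2 has the largest miR-29b-3p part, 14.5%, and the 5p share of miR-29c is above that of miR-29a and miR-29b in all 4 samples.

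The 2 clusters could be set side by side through miR-29b, whose 5p arms differ between its precursors. The 5p arms of Mir29b-1 and Mir29b-2 match at 19 of 21 bases when shifted by 1 base. miR-29b-1-5p held 66.7% and 80.0% of such reads for NC and 83.3% and 90.0% for GAA, from 4, 12, 25 and 9 reads of it. The GAA samples were higher without overlap (exact two-sided permutation test, p = 0.333, the smallest possible). The 95% Wilson intervals ran from 30.0% to 90.3% in NC-1 and from 59.6% to 98.2% in GAA-2, so at this depth a difference between groups was not detectable.

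The spread between replicates sets the scale for these differences. In log2(RPM + 1), replicate 2 minus replicate 1 was -0.11 for miR-29a-3p, 0.39 for miR-29b-3p and 0.01 for miR-29c-3p with NC, and -0.18, -0.21 and -0.20 with GAA. The median absolute difference over the 251 miRNAs with a mean of at least 10 RPM was 0.29 in NC and 0.27 in GAA. In miRNA-scaled RPM with 1 added, the NC difference was -0.49 for miR-29a-3p and -0.36 for miR-29c-3p, larger than the median absolute difference of 0.25, whereas that of miR-29b-3p was 0.01. The 5p arms varied more between replicates than these medians. In log2(RPM + 1) the difference for NC was 0.54 for miR-29a-5p, 0.96 for miR-29b-1-5p and 0.70 for miR-29c-5p, and for GAA it was -0.86, -1.08 and -0.33. For miR-29a-5p and miR-29b-1-5p both differences were larger than the log2 fold change between the groups.

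Among non-members with a mean of at least 10 RPM, the profile most like that of the summed 3p arms over the 4 samples was that of miR-3102-3p. Likeness was the Euclidean distance of log2(RPM + 1) centred on its own mean, which was 0.085 for miR-3102-3p, 0.10 for miR-25-3p and 0.10 for miR-143-5p, against a median of 0.47 over 247 miRNAs. miR-25-3p stood at 582 and 575 RPM in NC and 1053 and 938 RPM in GAA. With 4 samples that share their divisors, this is a description of the profiles.

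A list of 12 other miRNAs known from matrix and fibrosis was set beside the family. All 12 were found, 0 were called in RPM, and their median log2 fold change was 0.25 against 0.49 over the 410 miRNAs. The list was not split by known effect on fibrosis, so its median and counts have no direction to read. Its miR-200b-3p had a mean of only 0.096 RPM and is not among the 410. In RPM 6 were higher and 1 was lower in both GAA samples, where 63.4% and 3.41% of the 410 were. In share of miRNA reads 1 was higher and 5 were lower, against 23.7% and 19.0%, with a median of -0.15. The highest was miR-192-5p, which TGF-β is reported to induce in some kidney cells. It stood at 374 and 429 RPM in NC and 921 and 836 RPM in GAA (log2 fold change 1.13, limma adjusted p = 0.205). The lowest was miR-133a-3p, which targets connective tissue growth factor, at -0.55 (adjusted p = 0.276). miR-21a-5p, the profibrotic miRNA of highest level, overlapped between groups at 0.42 (adjusted p = 0.524).

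The muscle list had a negative median in RPM, -0.48. Of its 8 miRNAs 0 were called in RPM, and 0 were higher and 5 were lower in both GAA samples, where 63.4% and 3.41% of the 410 miRNAs were. In share of miRNA reads 8 of 8 were lower, against 19.0% of the 410, with a median of -0.96. The list was chosen with earlier results of these data known. The study itself had reported miR-133a-3p and miR-1a-3p as lower with GAA, so these counts are no independent test. miR-208b-3p, which is encoded in a slow myosin gene, was the lowest at -2.62 in RPM (limma adjusted p = 0.205). It is the 1 miRNA called on the miRNA-scaled values (-3.30, limma adjusted p = 0.00639). Its levels were 18.7 and 17.8 RPM in NC (92 and 84 reads) and 3.05 and 1.41 RPM in GAA (17 and 8 reads), so the GAA values rest on few reads. The most abundant of the list, miR-486a-5p, was also its highest in log2 fold change, at 0.12 in RPM (limma adjusted p = 0.758). miR-486b-5p carries the same values as miR-486a-5p, so they are 1 measurement that the counts of 8 hold 2 times. miR-133a-3p is in both lists and is counted among the lower miRNAs of each.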

How the data were processed

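Small RNA reads from 2 NC and 2 GAA samples, grouped by title, were analysed. The authors filtered reads for quality, adaptors and length and counted known miRNAs against GRCm38 with miRDeep2. What was deposited is a log2 value, log2(RPM + 1), where RPM divides a count by all mappable reads, so more miRNA among those reads raises most RPM values. A missing row was set to 0. Both the log base and the added 1 were inferred from the numbers themselves, since RPM fall on multiples of 1 read (0.177 to 0.211 RPM). Reads and depth were recovered from this step, whole to within 0.01 except for 25 to 32 miRNAs per sample, and 3 reads are 0.530 to 0.634 RPM.

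The groups were tested in limma 3.58.1 (R 4.3.3, mean-variance trend, condition only, no filter) with Benjamini-Hochberg adjustment over 869 miRNAs. The fit was first run on simulated data with larger changes than those of the members and a smaller spread. That run gives no measure of the power to detect changes in these samples. Other measures were tested by exact permutation of samples. Wilson intervals (95%) cover counting error only. Alternatives were a divisor of all miRNA reads, the same less its 5 most abundant miRNAs, median-of-ratios scaling, a pseudocount of 0.1, a filter at a mean of 1 RPM, a replicate block and each sample left out.

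The members and lists were chosen with earlier results of these data known. Non-members were named by rule: in each list the highest in mean RPM and the highest and lowest in log2 fold change (mean of at least 10 RPM), the 3 closest profiles, and the neighbours of miR-29a-3p in level. No batch is given in the sources used here. RefSeq (GRCm38.p6) held all 7 arms and 4 hairpins, and gene overlaps are from GENCODE M21.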

Additional observations from a re-analysis of the deposited data

How the results depend on the processing

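In the limma fits, where samples were left out in log2(RPM + 1) only, miR-29a-3p, miR-29c-3p, miR-29c-5p and miR-29b-1-5p had a positive log2 fold change under each alternative, and 0 of the 6 members were called. Folds of group means went below 1 in share without NC-2 for miR-29a-3p (0.989) and miR-29c-3p (0.994), and for miR-29b-1-5p in RPM without GAA-1 (0.950) and in share without NC-1 (0.958). The log2 fold change of miR-29b-3p was -0.00591 with median-of-ratios factors. That of miR-29a-5p was -0.0756 in miRNA-scaled RPM, with or without the replicate block, -0.126 with median-of-ratios factors and between -0.0415 and 0.814 with 1 sample left out, the lowest without GAA-1. For the summed 3p arms the log2 fold change moved from 0.68 in RPM to 0.20 in miRNA-scaled RPM (the same with the replicate block), 0.15 with median-of-ratios factors and 0.29 without the 5 most abundant miRNAs in the divisor. A share of fewer reads is larger by construction, and in that last divisor the 3p sum differed by 0.357 percentage points in place of 0.104. With each sample left out, that difference ranged from -0.00435 (without NC-2) to 0.212 percentage points. For shares of the 3p sum it ranged from -0.478 to 3.43 for miR-29a-3p and from -3.33 to 0.480 for miR-29b-3p, both with the sign turned without NC-2. For 3p shares of both arms it ranged from -0.0389 to 0.430 for miR-29a, from -0.374 to 0.108 for miR-29b and from -2.49 to 1.06 for miR-29c.

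Over all miRNAs, 0 were called in RPM, 1 (miR-208b-3p) with each of the 3 other scalings, and 6 with the replicate block in miRNA-scaled RPM. Same-numbered samples did not deviate together in log2(RPM + 1) (r = -0.10 over 251 miRNAs), which cannot show whether they were handled together. With the replicate block alone 0 were called and the members' adjusted p lay between 0.508 and 0.657. The crossed pairing, added after seeing the data, also gave 0. The summed arms and shares come from no fit, so a block cannot change them. With 1 sample left out, its group holds a lone sample, which is assumed to vary like the others. Depth limits the 5p arms most, since miR-29b-1-5p had 4 to 25 reads and miR-29b-2-5p 1 to 5.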
